A study of Rattus norvegicus with 8 samples.

Results

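The collagen chains and the enzymes that modify them were followed in rat chondrocytes exposed to TNFα with or without U0126, an inhibitor of the kinases MEK1 and MEK2. A gene was included when its symbol in the array annotation had the form of a collagen chain (Col, a type number, a, a chain number) or named a lysyl oxidase, a lysyl hydroxylase, a prolyl 4-hydroxylase alpha subunit or the collagen chaperone Serpinh1. Only probe sets naming 1 gene were used. The rule gave 52 genes, 41 collagen chains and 11 enzymes or chaperone, of the 14217 genes measured. Of its symbols, Loxl4 had no probe set of 1 gene. The members had 73 probe sets, and 34 of the 52 genes had 1 probe set. Where a gene had several, the one with the highest mean stands for it as its main probe set, and the remaining probe sets of 18 genes were compared with that one.

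Collagens are triple helices of alpha chains, which may be of a single kind or of several. Cartilage is built on fibrils of type II collagen, which carry type XI collagen as a minor component and type IX collagen on their surface. Type I and type III collagens belong to bone, skin and fibroblast matrix, and their rise beside a fall of type II is the textbook sign of chondrocytes losing their phenotype in culture. Before a collagen leaves the cell, prolyl 4-hydroxylases and lysyl hydroxylases modify its chains and Serpinh1 (HSP47) assists the folding of the helix. Outside the cell, lysyl oxidases start the cross-links that hold fibrils together. TNFα is an inflammatory cytokine of the arthritic joint, known to lower the expression of cartilage matrix genes, and MEK1 and MEK2 activate the kinases ERK1 and ERK2.

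The cells came from the femoral condyles of Sprague Dawley rats 1 day old and were grown on plastic. They were then kept without serum overnight. Cells of the U0126+TNFα group received U0126 for 30 min and then 30 ng/ml TNFα for 24 h. Cells of the TNFα group received the solvent DMSO for 30 min and the same TNFα for 24 h. U0126 cells received U0126 and then BSA, the vehicle of TNFα, and DMSO cells received DMSO and then BSA. Each of the 4 treatments had 2 biological replicates, taken here as 2 experiments, and each culture had its own Affymetrix RAT230_2.0 array, so there were 8 arrays in all. The labels do not say how many animals gave a culture. Monolayer culture on plastic limits these cells as a model of cartilage, since chondrocytes lose their phenotype there. An intensity below is a linear array value after each array was centred on its median, and it can be compared between arrays for 1 probe set but not between probe sets. In an RNA pool, fewer cells of a type and less RNA per cell cannot be told apart.

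Of 11 chondrocyte marker symbols listed, with Lect1 as an older name of Cnmd, 8 were measured, among them Col2a1, Acan and Hapln1. Their summed intensity was 133260 and 89213 with TNFα in experiments 1 and 2, against 172820 and 113620 with DMSO. Such sums, here and below, add probe sets of unlike brightness, so the brightest weigh most in them. The fibroblast markers, with Col1a1, Col1a2 and Col3a1 among the 8 measured, summed to 122650 and 149280 with TNFα against 110570 and 144740 with DMSO. Of these 8, 4 had a positive and 4 a negative difference with TNFα, and Col1a1, Col1a2 and Col3a1 were among the negative ones. Both kinds of marker were read on every array, and the second experiment had less of the chondrocyte list and more of the fibroblast list under all 4 treatments. Of the 8 chondrocyte genes 5 passed the limma test below, all lower with TNFα (Acan, Matn1, Hapln1, Cnmd and Col9a1), and of the fibroblast genes Pdgfra alone passed, with a higher level. Of 7 leukocyte markers, Cd68 was the only one to pass, at 472 and 641 with TNFα against 216 and 434 with DMSO. Ptprc (CD45), which defines leukocytes, stayed between 60.6 and 69.7 on all arrays, below the array medians. Of 6 markers of hypertrophic chondrocytes, Spp1 (log2 difference 2.08, limma adjusted p = 0.0324) and Mmp13 (2.76, limma adjusted p = 0.0433) passed, both higher with TNFα. The other 4 markers of the list had negative differences, and none of them passed. That list summed to 36164 and 10329 with TNFα against 4629 and 4859 with DMSO. The leukocyte list summed to 2751 and 2780.0 with TNFα against 1840 and 2423 with DMSO. The part of these marker changes in the collagen results was not tested.

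With TNFα most collagen genes did not pass the test, and those that did were lower but for Col18a1. Chains of types XI, IX and XXVII, all of them collagens of cartilage, were lower than with DMSO, at 0.67-fold to 0.81-fold for the 4 that passed, Col18a1 was higher, at 2.20-fold to 3.93-fold of DMSO, and the chains of types I, II and III did not pass. In the limma fit across all probe sets, with the experiment as a block and Benjamini-Hochberg adjustment, 1 member was higher with TNFα than with DMSO (Col18a1), 5 were lower (Col11a2, Col27a1, Col9a1, Col9a3 and Loxl3) and 46 did not pass. Over all genes, 4.21% were higher and 2.12% were lower by the same test, and 52.5% had a negative difference. The median log2 difference was -0.08 over the 52 members, -0.11 over the 41 collagen chains and 0.10 over the 11 enzymes and the chaperone, against -0.01 over all genes. Among the collagen chains, 24 of 41 (58.5%) were lower with TNFα in both experiments and 8 were higher in both, against 37.5% and 32.7% of all genes. Of 11 fibrillar chains, 10 had a negative difference, and so had 8 of 9 chains of the FACIT group, which sit on the surface of fibrils. None of the 6 passed in the limma fit without the replicate block or without the DMSO array of experiment 1, and Col18a1 alone of them passed without the DMSO array of experiment 2 or the TNFα array of experiment 1. Without those arrays 2 and 3 members passed, all higher.

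**Figure D1:**
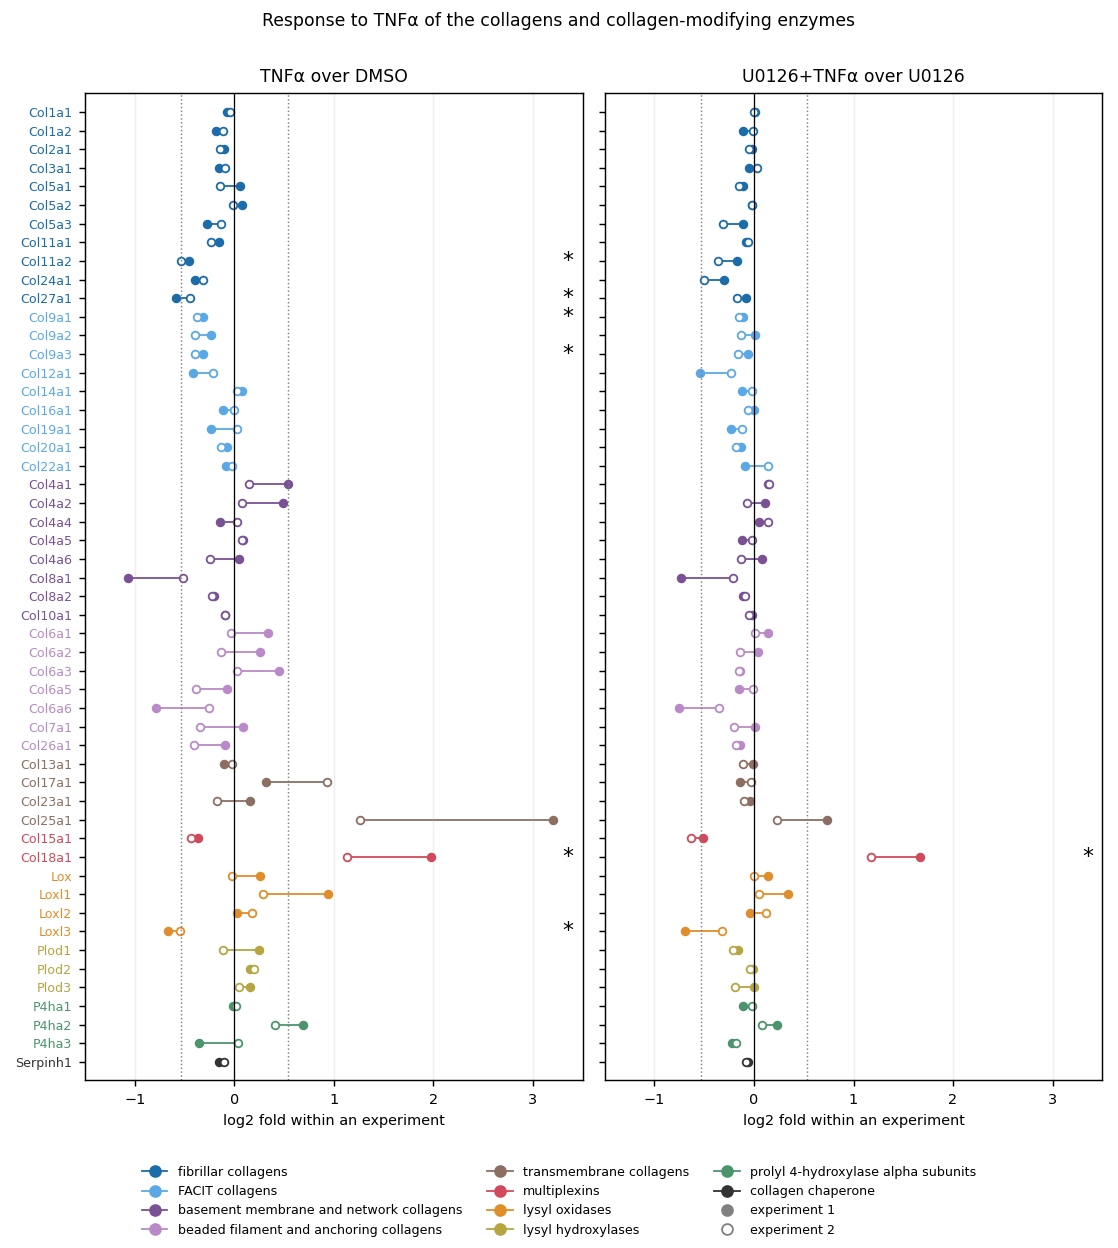
Log2 fold within an experiment (x axis) for each of the 52 genes (rows, coloured by gene group), for TNFα over DMSO (left) and U0126+TNFα over U0126 (right). Filled points are experiment 1, open points experiment 2, a line joins the 2, an asterisk marks a gene that passed limma, and dotted lines mark 1.45-fold. Col18a1 stands far to the right in both panels, and most fibrillar and FACIT chains lie left of 0 in both panels.

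Type XI and type IX chains form cartilage fibrils together with type II collagen. Col11a2 had intensities of 8798 and 5726 with TNFα in experiments 1 and 2, against 12075 and 8317 with DMSO. It was 0.73-fold and 0.69-fold of DMSO, a log2 difference of -0.50 ± 0.07 (SE, limma adjusted p = 0.0133). Within each experiment TNFα was the lower, but the TNFα array of experiment 1 was above the DMSO array of experiment 2, so the groups overlapped. Col27a1, a further fibrillar chain of cartilage, gave 2895 and 2434 with TNFα against 4345 and 3314 with DMSO. These groups did not overlap, and the log2 difference was -0.52 ± 0.07 (SE, limma adjusted p = 0.0147). Col9a3 had 14012 and 8733 with TNFα against 17365 and 11481 with DMSO, and Col9a1 had 20117 and 13397 against 24962 and 17332. Both were lower in each experiment, the groups overlapped because experiment 1 was higher throughout, and the log2 differences were -0.35 ± 0.06 and -0.34 ± 0.07 (SE, limma adjusted p = 0.0305 and 0.0479). The third chain of type IX, Col9a2, had 15396 and 9226 with TNFα against 18047 and 12161 with DMSO, and its difference of -0.31 ± 0.07 missed the threshold (SE, limma adjusted p = 0.0568). The chains of type IX thus had differences of similar size, and the threshold fell among them. Col9a1 and Col9a3 passed in no fit that left out 1 of the 8 arrays.

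Col11a1, the partner chain of type XI, was measured by 3 probe sets that differed in size of response. The main one gave 20337 and 14702 with TNFα against 22579 and 17326 with DMSO (log2 difference -0.19, limma adjusted p = 0.125). A further one gave 1302 and 571 against 2279 and 747, and passed with a difference of -0.60 (limma adjusted p = 0.0411). All 3 had a negative difference. Col2a1, the main chain of cartilage, also had its smallest difference by its main probe set. That probe set read 29958 and 24282 with TNFα against 32103 and 26758 with DMSO, with a log2 difference of -0.12 (95% interval -0.27 to 0.03, limma adjusted p = 0.273). The others had differences of -0.57 and -0.37 (limma adjusted p = 0.0896 and 0.349). The highest deposited intensity in any array was 34845, so the Col2a1 values lay near the upper end of the scale. Whether the top probe sets were saturated was not tested.

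The collagens of fibroblast matrix showed no difference that passed. Col1a1 read 28732 and 33367 with TNFα against 30287 and 34358 with DMSO (log2 difference -0.06, limma adjusted p = 0.544), also near the top of the scale. Col1a2 read 20689 and 24592 against 23551 and 26547, and Col3a1 read 18503 and 24199 against 20528 and 25728. Their log2 differences were -0.15 and -0.12 (limma adjusted p = 0.195 and 0.266), and no probe set of Col1a1, Col1a2 or Col3a1 passed. Col10a1, the collagen of hypertrophic chondrocytes, lay between 160.1 and 176 on all 8 arrays, below the array medians. It read 165 and 160.1 with TNFα against 176 and 171 with DMSO (log2 difference -0.09, limma adjusted p = 0.346), while Spp1 and Mmp13 of the hypertrophic list were higher.

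Col18a1 and Col15a1 are the multiplexins, collagens of basement membrane zones with interrupted helices. The end domain of Col18a1 is released as endostatin. The signs of their differences were opposite. Col18a1 had intensities of 3596 and 4025 with TNFα, against 916 and 1832 with DMSO. Both TNFα arrays were above both DMSO arrays, and the level was 3.93-fold in experiment 1 and 2.20-fold in experiment 2. The log2 difference was 1.55 ± 0.21 (SE, 95% interval 1.07 to 2.04, limma adjusted p = 0.0107), and the second probe set of the gene also passed (1.63, limma adjusted p = 0.0162). Without the DMSO array of experiment 1 the difference was 1.36 and missed the threshold (limma adjusted p = 0.0699). Col15a1 read 1143 and 2200 with TNFα against 1469 and 2984 with DMSO. It was lower within each experiment, at 0.78-fold and 0.74-fold, while the groups overlapped because experiment 2 was higher throughout. Its log2 difference was -0.40 (limma adjusted p = 0.0652), and its second probe set passed with -0.41 (limma adjusted p = 0.0312).

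**Figure D2:**
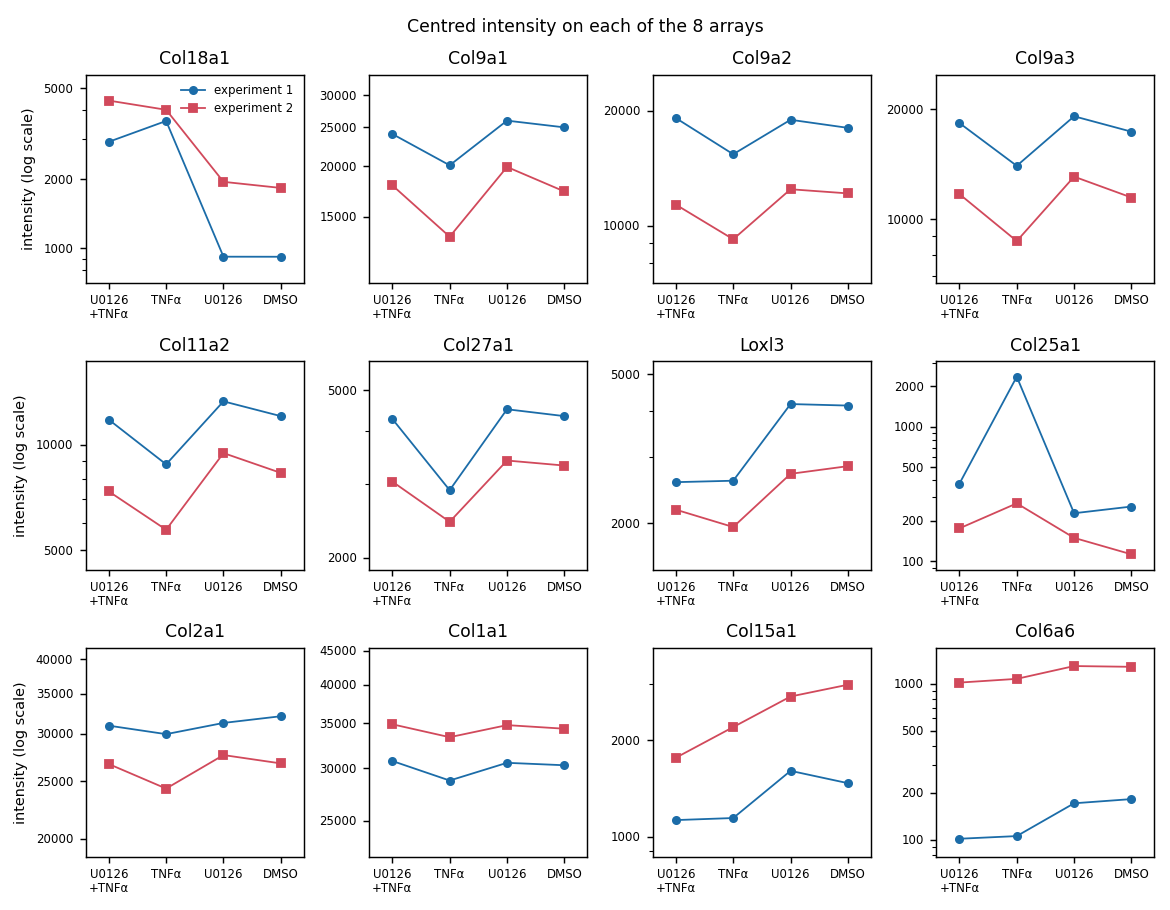
Centred intensity (y axis, log scale, arbitrary units) of 12 of the genes on each of the 8 arrays, by treatment (x axis). Each point is 1 array, blue circles are experiment 1, red squares are experiment 2, and lines join the arrays of an experiment. Col18a1 is high in both groups with TNFα, and the cartilage chains are lower with TNFα than with DMSO within each experiment. Loxl3 is low in both groups with TNFα, and Col25a1 has 1 high array.

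The bases upstream of these genes are shown because the members that moved did so in opposite directions. The windows hold the 250 bases before the start of the gene in RefSeq, on the GRCr8 assembly, printed along the gene's own strand. Of the 52 members, 41 had an entry, and Col9a3, Col2a1, Col1a1 and Col25a1 were among the 11 that had none. Letters searched on both strands were GCGNGGGCG (bound by Egr factors), GGGCGG (bound by Sp1), AACAAT (bound by SOX factors) and the NF-κB consensus of 10 letters. Capitals mark matches, and overlapping matches run together. The Col18a1 window is chr20:11473395-11473644 on the plus strand, Col11a2 is chr20:4817649-4817898 on the minus strand, Col27a1 is chr5:81662658-81662907 on the plus strand and Col9a1 is chr9:34081114-34081363 on the plus strand.
Col18a1: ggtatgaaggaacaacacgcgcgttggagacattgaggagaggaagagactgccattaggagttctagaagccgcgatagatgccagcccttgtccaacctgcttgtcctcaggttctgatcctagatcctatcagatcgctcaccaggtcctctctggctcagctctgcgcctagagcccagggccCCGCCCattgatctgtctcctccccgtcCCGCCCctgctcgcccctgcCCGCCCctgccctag
Col11a2: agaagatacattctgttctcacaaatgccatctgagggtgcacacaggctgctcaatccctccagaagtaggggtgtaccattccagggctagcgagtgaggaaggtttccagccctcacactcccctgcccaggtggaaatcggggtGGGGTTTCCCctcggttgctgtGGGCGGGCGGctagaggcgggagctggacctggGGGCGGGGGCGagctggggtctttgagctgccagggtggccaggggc
Col27a1: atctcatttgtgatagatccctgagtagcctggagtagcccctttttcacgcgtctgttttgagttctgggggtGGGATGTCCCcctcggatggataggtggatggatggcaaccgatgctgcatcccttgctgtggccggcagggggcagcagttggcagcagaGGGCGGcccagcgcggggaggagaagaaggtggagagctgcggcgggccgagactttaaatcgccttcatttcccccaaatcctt
Col9a1: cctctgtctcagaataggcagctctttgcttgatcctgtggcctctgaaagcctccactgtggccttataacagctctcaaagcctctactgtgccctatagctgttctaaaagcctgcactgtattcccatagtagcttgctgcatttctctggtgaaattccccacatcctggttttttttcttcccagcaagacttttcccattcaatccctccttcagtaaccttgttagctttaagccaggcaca
In Col18a1 the capitals are 3 Sp1 matches, all read as CCGCCC on the printed strand, and no other motif matched. In Col11a2 they are 1 NF-κB match, a run of 2 overlapping Sp1 matches, and 1 Sp1 match that overlaps the only Egr match among the called genes. In Col27a1 they are 1 NF-κB match and 1 Sp1 match, and Col9a1 and Loxl3 had no match to any of the 4. Over the 41 members with an entry, the Sp1 letters were found in 24 (58.5%), against 32.4% of 27457 promoter windows of the same length. The Egr letters were in 6 (14.6%, against 4.53%), the NF-κB letters in 5 (12.2%, against 6.41%) and the SOX letters in 0 (against 10.3%). The windows were not matched for base composition. The share of G and C in the members' windows ran from 41.6% (Col10a1) to 75.2% (Col4a1). Its part in these shares of matches was not tested. The Egr matches lay upstream of Col11a2, Col26a1, Col4a1, Col4a2, Col5a3 and Plod3, of which only Col11a2 passed the test. A match shows that the letters are there and not that a factor binds.

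Among the transmembrane collagens, Col25a1 had the highest fold of any member and the least even one. It read 2361 and 270 with TNFα against 256 and 113 with DMSO. All of these but the 2361 lay below the array medians, and it was not known whether they were above background. Both TNFα arrays were above both DMSO arrays, but unevenly, with 9.22-fold in experiment 1 and 2.39-fold in experiment 2. The log2 difference was 2.23 ± 0.52 (SE, 95% interval 1.00 to 3.47) and missed the threshold (limma adjusted p = 0.0582). The difference was 1.15 without the TNFα array of experiment 1 and 3.31 without that of experiment 2. Each of these fits held 1 TNFα array, so the spread between the TNFα arrays did not enter it. Col17a1, a collagen of the hemidesmosomes of epithelia, read 73.0 and 119 with TNFα against 58.7 and 62.7 with DMSO. Its log2 difference was 0.62 (limma adjusted p = 0.0512), at an intensity where it was not known to be above background. Another transmembrane chain, Col23a1, read 431 and 389 with TNFα against 388 and 440 with DMSO (log2 difference -0.01, limma adjusted p = 0.945).

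No chain of the basement membrane and network group passed by its main probe set. Col4a1, a chain of every basement membrane, read 3799 and 8341 with TNFα against 2615 and 7543 with DMSO, with a log2 difference of 0.34 (limma adjusted p = 0.0870). Its second probe set passed with 0.45 (limma adjusted p = 0.0385). Within an experiment TNFα was higher, and experiment 2 was more than 2-fold above experiment 1 in every treatment. Col8a1, a short-chain collagen of vessel walls and the eye, read 917 and 2143 with TNFα against 1916 and 3055 with DMSO. It had the largest negative difference of the 52 genes, -0.79, and missed the threshold (limma adjusted p = 0.0636). Its partner Col8a2 read 14656 and 12934 against 16889 and 15102. Both its TNFα arrays were below both DMSO arrays, and the difference was -0.21 (limma adjusted p = 0.0851). Chains of the beaded filament and anchoring group differed by between -0.52 and 0.24, and 0 of 7 passed. Among them Col6a2, a chain of the microfibrils around chondrocytes, read 11087 and 11267 with TNFα against 9238 and 12323 with DMSO (log2 difference 0.07, limma adjusted p = 0.720).

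Loxl3, a member of the lysyl oxidase family that oxidises lysines of collagen and elastin, was the only enzyme to pass. It read 2598 and 1954 with TNFα against 4125 and 2842 with DMSO. The groups did not overlap, the folds were 0.63 and 0.69, and the log2 difference was -0.60 ± 0.10 (SE, limma adjusted p = 0.0197). The other lysyl oxidases had positive differences. Loxl1, which acts in elastic fibres, read 6746 and 8192 with TNFα against 3503 and 6712 with DMSO (0.62, limma adjusted p = 0.0651). Lox itself read 17804 and 14083 against 14858 and 14329 (0.12, limma adjusted p = 0.439). TNFα was thus 1.20-fold of DMSO for Lox in experiment 1 and 0.98-fold in experiment 2.

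Of the prolyl 4-hydroxylase alpha subunits, which carry the catalytic site of the enzyme, P4ha2 read 11372 and 7576 with TNFα against 7033 and 5703 with DMSO. The groups did not overlap, and the log2 difference of 0.55 missed the threshold (limma adjusted p = 0.0673). P4ha1 read 17492 and 13726 against 17635 and 13532, a log2 difference of 0.00 (95% interval -0.14 to 0.15, limma adjusted p = 0.970). Plod2, the lysyl hydroxylase of the telopeptides, read 14477 and 8759 with TNFα against 13008 and 7615 with DMSO (0.18, limma adjusted p = 0.126). The 3 lysyl hydroxylases lay between 0.07 and 0.18. Serpinh1 read 21633 and 20765 with TNFα against 24132 and 22363 with DMSO, with a difference of -0.13 (limma adjusted p = 0.211).

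In the study's methods a gene counts as regulated when both experiments show a change of 1.45-fold or more, one way, a rule with no p value. By it, TNFα over DMSO was higher for Col18a1 and Col25a1 and lower for Loxl3, against 2.19% and 0.492% of all genes. The cartilage chains that passed limma did not reach this fold in both experiments. Col11a2 reached it in experiment 2 (0.69, with 0.73 in experiment 1) and Col27a1 in experiment 1 (0.67, with 0.73 in experiment 2).

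U0126 without TNFα was set against the same DMSO arrays as TNFα. In limma, 0 of 52 members passed for U0126 against DMSO (0.0914% of all genes), 7 had an unadjusted p under 0.05 (13.5%, as over all genes), and none passed the fold rule (0.415% of all genes). The median log2 difference was 0.02. Col4a5, a basement membrane chain, came nearest to passing. It read 3517 and 2414 with U0126 against 2481 and 1672 with DMSO, 1.42-fold and 1.44-fold, a log2 difference of 0.52 (95% interval 0.36 to 0.67, limma adjusted p = 0.0996). Its TNFα arrays were 2635 and 1766, near DMSO, and its U0126+TNFα arrays were 3225 and 2374. Both groups with the inhibitor were thus above their partner without it in each experiment. For Col1a1 the difference between U0126 and DMSO was 0.02 (95% interval -0.12 to 0.15). The 3 probe sets of Col2a1 did not agree, with 0.00 (-0.15 to 0.15) for the main one and -0.67 (-1.22 to -0.11) and 0.29 (-0.10 to 0.67) for the others, and none passed.

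In cells that had U0126, TNFα also raised Col18a1. Col18a1 read 2915 and 4416 with U0126+TNFα against 917 and 1948 with U0126, 3.18-fold and 2.27-fold, with no overlap of the groups. The log2 difference was 1.42 ± 0.21 (SE, limma adjusted p = 0.0291), and the second probe set had 1.37 (limma adjusted p = 0.0592). It was the 1 member of 52 to pass limma for U0126+TNFα against U0126 (1.68% of all genes), and also the 1 member to pass the fold rule (1.58% of all genes). Without either array of the U0126 group or of the U0126+TNFα group it no longer passed (limma adjusted p between 0.0894 and 0.234). Col15a1 read 1126 and 1765 with U0126+TNFα against 1606 and 2741 with U0126, a log2 difference of -0.57 (limma adjusted p = 0.0510), and its second probe set passed with -0.58 (limma adjusted p = 0.0229). Loxl3 read 2575 and 2174 with U0126+TNFα against 4164 and 2711 with U0126, a log2 difference of -0.51 (limma adjusted p = 0.0692). The TNFα responses of these 3 genes were thus of the same sign with and without the inhibitor.

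In the presence of U0126, 28 of 41 collagen chains (68.3%) were lower with TNFα in both experiments and 6 were higher in both, against 34.9% and 30.2% of all genes. Of the fibrillar chains 10 of 11, and of the FACIT chains 8 of 9, had a negative difference here too (53.0% of all genes). Col27a1, Col11a2 and the chains of type IX did not pass. The 3 probe sets of Col2a1 differed in sign, with -0.03 for the main one and 0.45 and -0.62 for the others, and none passed. Col27a1 read 4279 and 3035 with U0126+TNFα against 4511 and 3406 with U0126, a log2 difference of -0.12 (limma adjusted p = 0.575) beside -0.52 for TNFα against DMSO. Col11a2 read 11800 and 7365 against 13307 and 9476 (-0.27, limma adjusted p = 0.162, beside -0.50). Col9a1 read 24042 and 17951 against 25938 and 19927 (-0.13, limma adjusted p = 0.532, beside -0.34). Of the other chains of type IX, Col9a3 read 18338 and 11732 against 19131 and 13091 (-0.11, limma adjusted p = 0.551, beside -0.35), and Col9a2 read 19142 and 11364 against 18948 and 12468 (-0.06, limma adjusted p = 0.799, beside -0.31). A threshold passed in 1 pair and not in the other does not show that the responses differed, so the difference itself was tested.

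In limma, 0 of 52 members passed for the difference of the TNFα responses with and without U0126, and 0% of all genes did, while 6 members (11.5%) and 1203 genes (8.46%) had an unadjusted p under 0.05. Col27a1 had a difference of responses of 0.39 (95% interval 0.14 to 0.64, unadjusted p = 0.00761, limma adjusted p = 0.499). Col17a1, dim on every array, had -0.71 (-1.17 to -0.25, unadjusted p = 0.00840, limma adjusted p = 0.499). For Col9a2 it was 0.25 (0.01 to 0.50), for Col9a3 0.24 (0.03 to 0.46), for Col11a2 0.23 (-0.01 to 0.46) and for Col9a1 0.21 (-0.03 to 0.46), each with a limma adjusted p of at least 0.529. For Col18a1 the difference was -0.13 (95% interval -0.82 to 0.56, limma adjusted p = 0.902). For Loxl3 it was 0.10 (-0.22 to 0.42).

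**Figure D3:**
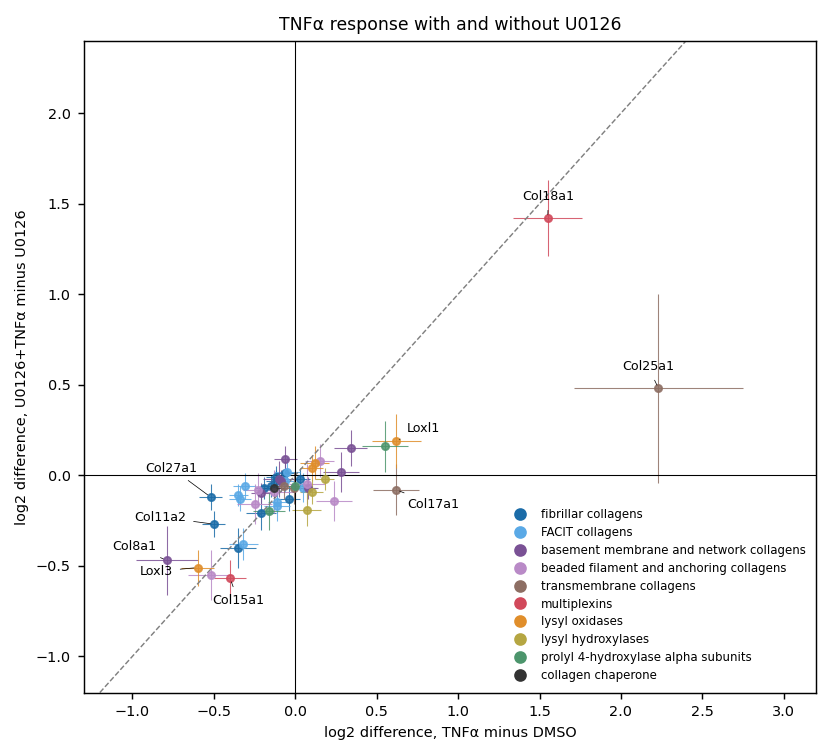
Log2 difference of U0126+TNFα minus U0126 (y axis) against TNFα minus DMSO (x axis) for the 52 genes, coloured by gene group. Bars are standard errors from limma, and the dashed line marks equal responses. Col18a1 (1.55, 1.42) and Loxl3 (-0.60, -0.51) lie near the line, Col27a1 (-0.52, -0.12) lies above it and Col25a1 (2.23, 0.48) below it, with wide bars.

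Set directly against TNFα alone, U0126+TNFα gave 0 of 52 members in limma (0.366% of all genes), with 17 (32.7%) at an unadjusted p under 0.05, against 13.7% of all genes. The values of this comparison share the TNFα arrays with those against DMSO, so they are not separate evidence. The nearest to the threshold was Col9a3, 18338 and 11732 with U0126+TNFα against 14012 and 8733 with TNFα, a log2 difference of 0.41 (95% interval 0.26 to 0.56, limma adjusted p = 0.0733). By main probe sets, Col27a1 followed with 0.44 (limma adjusted p = 0.0850) and Col11a2 with 0.39 (limma adjusted p = 0.0941). The inhibitor's arrays were higher in both experiments for Col9a3, Col27a1 and Col11a2. The Col11a1 probe set that passed for TNFα against DMSO had 0.75 here (limma adjusted p = 0.0754). The main Col11a1 probe set had 0.20 and the remaining one 0.18. Their differences of responses were 0.56, 0.12 and 0.17, and none passed. By the fold rule Col25a1 was the 1 member, lower with U0126+TNFα (1.01% of all genes passed). It read 379 and 176 with U0126+TNFα against 2361 and 270 with TNFα, a log2 difference of -1.63 (95% interval -2.86 to -0.40, limma adjusted p = 0.279). The fold was 0.16 in experiment 1 and 0.65 in experiment 2. Without the TNFα array of experiment 2 the difference was -2.71.

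Other genes of collagen biosynthesis mostly had the sign of the collagen chains. Of 31 listed symbols, some of them older names of the same genes, 17 were measured. Of these 17, 16 had a negative difference with TNFα (52.5% of all genes had one), and 3 passed, all lower (2.12% of all genes). Colgalt2, which attaches galactose to hydroxylysine of collagen, read 1327 and 514 with TNFα against 2593 and 804 with DMSO (log2 difference -0.80, limma adjusted p = 0.0129). Fkbp14, a peptidyl-prolyl isomerase of the endoplasmic reticulum, differed by -0.44, and P3h1, a prolyl 3-hydroxylase, by -0.38 (limma adjusted p = 0.0175 and 0.0406). The median of the 17 was -0.11, against -0.01 over all genes. Of 14 collagen receptors and transcription factors listed, 9 were measured and 3 passed, 2 higher and 1 lower (4.21% and 2.12% of all genes). Itga1, the integrin subunit that binds collagen IV and I, was higher with TNFα (0.60, limma adjusted p = 0.00907), Itga11, the subunit for fibrillar collagens, was lower (-0.68, limma adjusted p = 0.0129), and the transcription factor Cebpb was higher (1.00, limma adjusted p = 0.0438). Egr1, chosen after its values were seen as the only gene of this list past the fold rule for U0126, read 1263 and 1660 with U0126 against 3571 and 4644 with DMSO. With U0126+TNFα it read 1762 and 1490, against 3923 and 3618 with TNFα. Egr1 was lower in both groups with the inhibitor, and narrowly missed the threshold in both comparisons. Its log2 difference was -1.49 for U0126 against DMSO (limma adjusted p = 0.0527) and -1.22 for U0126+TNFα against TNFα (limma adjusted p = 0.0556).

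The experiments differed for many of these genes whatever the treatment. Of the 52 members, 9 (17.3%) were at least 1.45-fold apart between experiments in the same direction under all 4 treatments, against 417 of the 14217 genes (2.93%). These ratios compare single arrays and carry no test. Higher in experiment 2 were Col6a6, at 7.04-fold to 10.17-fold, Col4a1 (2.20 to 2.88), Col4a2 (1.73 to 2.40), Col15a1 (1.57 to 2.03) and Col5a3 (1.46 to 1.86). Lower in experiment 2 were Col25a1, at 0.11-fold to 0.66-fold, Col9a2 (0.59 to 0.67), Col9a3 (0.62 to 0.68) and Plod2 (0.59 to 0.62). Col6a6, a chain of type VI collagen, read 106 and 1075 with TNFα against 182 and 1285 with DMSO, so that the experiments were farther apart than the treatments. By their main probe sets, the chains of types II, IX and XI were all lower in experiment 2, and Col1a1, Col1a2 and Col3a1 were all higher, in each treatment. One of the other probe sets of Col2a1 was higher in experiment 2 instead, at 1.29-fold to 2.52-fold. The experiments entered the fits as a block.

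**Figure D4:**
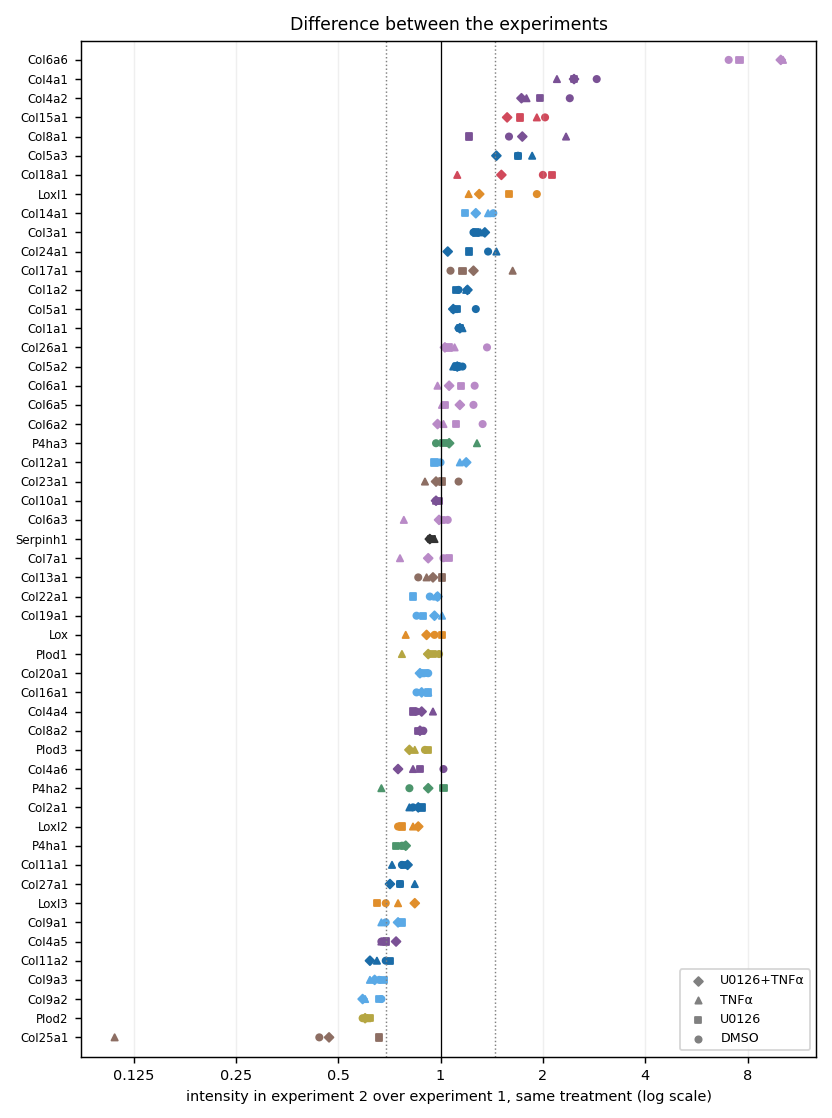
Intensity in experiment 2 over experiment 1 (x axis, log scale) for the 52 genes (rows, ordered by their ratios), with 1 symbol per treatment and colours by gene group as in the plot of folds. Dotted lines mark 1.45-fold in either direction. Col6a6 lies between 7.04 and 10.17, Col25a1 between 0.11 and 0.66, and for most genes the 4 treatments cluster.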

How the data were processed

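RNA of 8 cultures, 2 for each of 4 treatments, was measured on single-colour Affymetrix RAT230_2.0 arrays. The values deposited by the authors are 1 linear intensity per probe set and array, and the submitters' processing notes name RMA without a version. The scaling to the 50th percentile of each chip and the division by the control that the methods describe are not visible in these intensities, since all array medians lie between 365.1 and 378.2. Whether a dim probe set lay above background was not assessed, and the number of arrays limits the precision.

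Values were taken to log2, and each array was centred on its median over 31099 probe sets. The 57 control probe sets were left out, and 31042 were tested. Genes were named from the array's annotation, in which 20826 probe sets carried 1 symbol. A linear model with terms for treatment and experiment was fitted to all 8 arrays with limma 3.58.1 (R 4.3.3), with 3 residual and 3.913 prior degrees of freedom, p values were adjusted by Benjamini-Hochberg over all probe sets within a comparison, and the threshold was 0.05. The script was tested on simulated data. The replicate number of the labels was taken as the experiment, because the methods set each array against the array of its own experiment. Deviations from the treatment means correlated at 0.728 to 0.829 between arrays with the same number, so the numbers pair the arrays. The labels call the samples biological replicates. The p values measure only the spread between these cultures that was left once the difference between the experiments was removed.

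The members, gene lists and tests were chosen with earlier results of these data known. Values on every array were to be given for members that passed limma or the fold rule, for chondrocyte, hypertrophic and fibroblast collagens, and for the member of each group with the highest mean log2 value. Col15a1, Col17a1, Col4a1, Col4a5, Col6a6, Col8a1, Loxl1 and P4ha2 were added after their values were seen. The alternatives tried were no centring, quantile normalization, leaving out the dimmest 40 percent of probe sets, a trended prior variance, no replicate block, leaving out each array, the mean of all probe sets of a gene, and thresholds of 1.3-fold and 2-fold. Promoter windows came from RefSeq sequences, and Python 3.11.15 with pandas 2.3.3 and matplotlib 3.10.9 made the counts and figures. Protein sequences were not used here.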

Additional observations from a re-analysis of the deposited data

How the results depend on the processing

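The 6 members called for TNFα against DMSO all passed under quantile normalization, no centring, the filter on dim probe sets, the trended prior and the mean of all probe sets. Without the replicate block 0 passed, and leaving out 1 array gave between 0 and 7. The split of 1 higher and 5 lower became 2 and 0 without the DMSO array of experiment 2, 3 and 0 without the TNFα array of experiment 1, and 4 and 3 without that of experiment 2. With the mean of all probe sets 11 passed, 3 higher and 8 lower, of which Col11a1, Col15a1, Col17a1, Col4a1 and Col9a2 were additional. For U0126+TNFα against U0126, where 1 member passed, 2 passed with any probe set counted, with the dimmest probe sets left out, with the trended prior and with the mean of all probe sets, the addition being Col15a1. There 0 passed without the replicate block, and between 0 and 1 when 1 array was left out. For U0126+TNFα against TNFα, where 0 passed, the trended prior gave 1 (Col9a3) among the fits that held all 8 arrays. A fit without 1 array leaves 1 array in its group, so the spread within that group does not enter it. For U0126 against DMSO and for the difference of the responses, 0 passed in each fit that was run.

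By the fold rule, TNFα over DMSO gave 3 members (2 higher, 1 lower), 7 at 1.3-fold (3 higher, 4 lower), 5 under quantile normalization (2 higher, 3 lower) and 5 to 9 in a single experiment. Without centring, this comparison gave 2 (2 higher, 0 lower), so Loxl3 was no longer counted. U0126 over DMSO gave 0, 1 at 1.3-fold (Col4a5) and 0 to 1 in a single experiment. U0126+TNFα over U0126 gave 1, 2 at 1.3-fold, 2 under quantile normalization and 2 to 6 in a single experiment. U0126+TNFα over TNFα gave 1, 4 at 1.3-fold, 0 at 2-fold, 2 with any probe set counted and 2 to 3 in a single experiment. Of 105 differences of 21 named genes, the 7 that passed kept their sign in each fit run, and those that did not pass changed sign 44 times. The cause of these changes was not tested. With 2 arrays per treatment, calls near the threshold depended on single arrays, and 8 of the 52 members were among the dimmest 40 percent of probe sets.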
